A study of Zea mays with 10 samples.

Results

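Anthers of the maize mutant ms28 at prophase I of meiosis (2 libraries) were set beside anthers of the inbred line B73 before meiosis (2 libraries), which are 4 of the 10 RNA libraries of a study on the 21-nt phasiRNAs of maize anthers. Both groups are whole anthers. The ms28 group carries the ms28 mutation, which causes male sterility, and its anthers were in prophase I. The premeiotic group is B73, the line whose genome is the maize reference, with no mutation named. Genotype, stage and deposited table therefore differ together between the groups, and their parts in any difference cannot be told apart from these 4 libraries. The sources used here do not give the background into which ms28 was bred, the growth site of each library (a field or a greenhouse), or whether the 2 libraries of a group came from different plants. B73 anthers at prophase I (2 libraries) share the stage and the table of the ms28 anthers and are given beside the results.

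Before meiosis, the anther lobes of a grass lay down their somatic wall layers, among them the tapetum, around the cells that will enter meiosis. At prophase I the meiocytes pair and recombine their chromosomes while the tapetum becomes a secretory tissue that feeds them. PhasiRNAs are small RNAs cut in register from long precursor transcripts after a miRNA has sliced them. A shorter class accumulates in grass anthers before meiosis and a longer class during meiosis.

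The comparison rests on the 25412 features present in both anther tables, all of them gene models given by ID only. Neither the deposited tables nor the reference gene table used here pairs these IDs with names, since 0 of 43789 gene models were matched, so no function is given for any of them. For the same reason the markers of tapetum, meiosis and small RNA genes, and the mutated locus itself, could not be read out, and the tissue and genotype labels were not checked by them. The prophase I anther table holds 48 miRNA loci and the premeiotic table holds 0, so the miRNA precursors that trigger phasiRNAs could not be compared across these groups. Sequencing depth is unknown, because the tables hold no counts. Of the B73 prophase I libraries, replicate 1 stood apart: its 100 most abundant gene models held 19.5% of its summed value, against 28.1% in replicate 2. In the ms28 libraries that share was 39.3% and 35.0%, and in the premeiotic libraries 26.2% and 26.4%. Within each library every shared gene model was given its percentile rank, from the lowest level (near 0) to the highest (100). A gene model was said to have shifted when both ms28 libraries lay at least 50 percentile points above, or below, both premeiotic libraries, which is all 4 library pairs. With 2 libraries in each group, an exact permutation test over samples cannot give a two-sided p below 0.333, so no p-value is attached to a shift. In whole anthers, a different number of cells of a type and a different amount of RNA per cell cannot be told apart.

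In ms28 prophase I anthers, 232 gene models ranked at least 50 points higher than in premeiotic B73 anthers, and 54 ranked at least 50 points lower. These are 0.913% and 0.212% of the 25412 compared. The median rank of the 232 was 83.7 and 84.0 in the ms28 libraries and 10.2 and 9.92 in the premeiotic libraries. The median rank of the 54 was 10.0 and 12.7 in the ms28 libraries and 74.8 and 75.8 in the premeiotic libraries. Just inside the limit the smallest pair difference was 50.05 points and just outside it 49.86 points for gene models higher in ms28. For those lower in ms28 it was -50.002 points just inside and -49.94 points just outside.

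**Figure D1:**
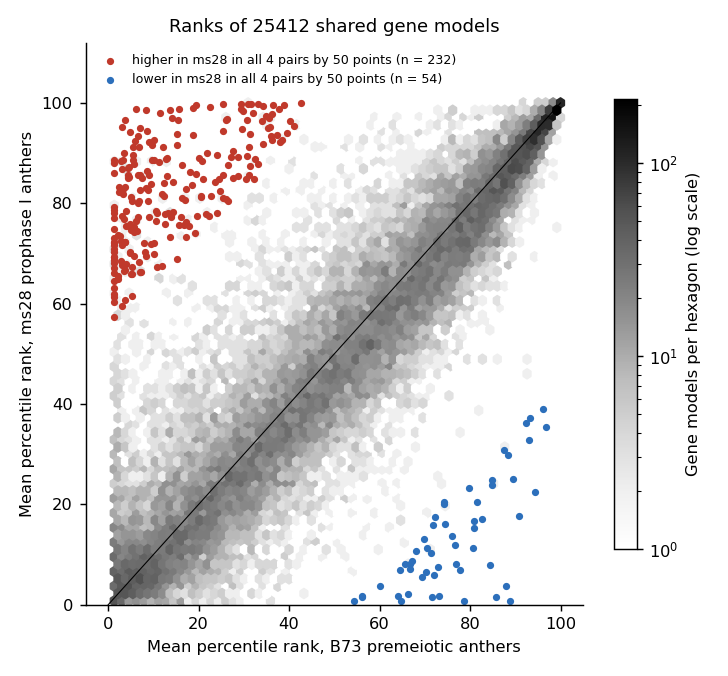
Mean percentile rank of each of 25412 shared gene models in B73 premeiotic anthers (x axis) and in ms28 prophase I anthers (y axis), 2 libraries per group, with grey hexagons for the number of gene models on a log scale. The 232 red points rank at least 50 points higher in ms28 in all 4 library pairs and the 54 blue points at least 50 points lower. Most gene models lie near the diagonal.

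Over the shared gene models, large shifts were more often upward in ms28 and small ones more often downward, but when each table was ranked as a whole downward shifts were the more frequent at every size counted. At 25 points 894 gene models were higher in ms28 and 402 lower (3.52% and 1.58%). By direction alone, 7755 were higher in ms28 in all 4 pairs and 11762 lower (30.5% and 46.3%). Ranks are relative, so a gene model that moves up past many others lowers each of them a little. With ranks over all features of each own table, 25 gene models shifted upward by 50 points in ms28 and 299 downward. On that scale 210 were higher and 7743 lower by 25 points, and 1390 higher and 22574 lower by direction alone. The prophase I anther table holds 25460 features and the premeiotic table holds 43789, and 9215 of the 18377 that only the premeiotic table holds were listed at 0 in both premeiotic libraries, so a gene model of the same level has a higher rank in that longer table.

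The ms28 libraries differed from each other by 50 points or more at 19 gene models, the B73 prophase I libraries at 51 and the premeiotic libraries at 4, beside the 232 upward and 54 downward shifts between ms28 and premeiotic anthers. At 10 points 2703 gene models were higher and 2594 lower in ms28 than in premeiotic anthers. Replicates differed by that much, in either direction, at 2659 gene models in ms28, 3728 in B73 prophase I and 288 in premeiotic anthers. Upward and downward shifts added up to more gene models than differed between the libraries of either prophase I group. A shift had to hold in all 4 library pairs, whereas a replicate difference rests on the only pair of its group. Spearman's rank correlation over the 25412 gene models was 0.972 between the ms28 libraries and 0.994 between the premeiotic libraries. Between an ms28 and a premeiotic library it ran from 0.864 to 0.871. Between an ms28 and a B73 prophase I library it ran from 0.926 to 0.957, and between a B73 prophase I and a premeiotic library from 0.834 to 0.898. These values describe gene models that share libraries and tables, and they carry no test. The table boundary lies between the premeiotic and all prophase I libraries, and its part in the lower correlations cannot be told apart from that of stage.

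**Figure D2:**
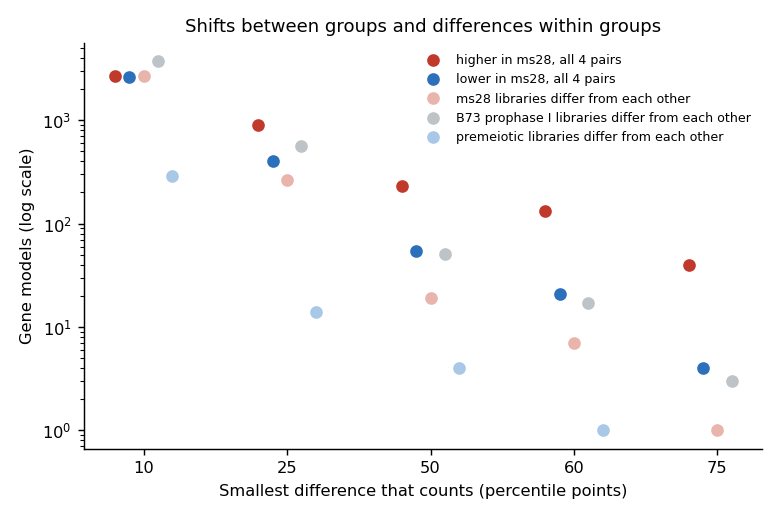
Number of gene models (y axis, log scale) that differ by at least 10, 25, 50, 60 or 75 percentile points (x axis). Red and dark blue points count gene models higher or lower in ms28 prophase I than in premeiotic anthers in all 4 library pairs, and pale points count gene models at which the 2 libraries of ms28 prophase I, B73 prophase I or premeiotic anthers differ from each other. At 75 points the counts are 40 higher, 4 lower, 1 between the ms28 libraries, 3 between the B73 prophase I libraries and 0 between the premeiotic libraries, which has no point.

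In level, the 232 gene models higher in ms28 were of middle to high abundance in ms28 anthers and of low abundance before meiosis. Their mean ms28 level was 100 TPM or more for 43, between 10 and 100 TPM for 177 and between 1 and 10 TPM for 12. TPM gives each transcript's part of the RNA in its library, corrected for transcript length and scaled to 1000000. Their mean premeiotic value was under 1 for 180 of them and between 1 and 10 for 52, on the scale of the deposited premeiotic table, whose unit is not given. Together the 232 held 6.198% and 3.87% of the summed value in the ms28 libraries and 0.0163% and 0.0150% in the premeiotic libraries. The 54 gene models lower in ms28 were of low abundance in ms28 anthers and mostly of middle abundance before meiosis. Their mean ms28 level was under 1 TPM for 43 and between 1 and 10 TPM for 11. Their mean premeiotic value was between 10 and 100 for 45, between 1 and 10 for 7 and 100 or more for 2. They held 0.00270% and 0.00378% of the summed value in the ms28 libraries and 0.186% and 0.207% in the premeiotic libraries.

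Where a gene model stood before meiosis set how far it could move, and the shifts were spread unevenly over that range. In the lowest decile of premeiotic ranks, 271 of 2542 gene models (10.7%) ranked at least 25 points higher in ms28, against 5.90% in the next decile and 3.50% in the fifth. In the seventh decile, 79 of 2541 (3.11%) ranked at least 25 points lower in ms28 and 38 higher. In the highest decile, 26 of 2542 (1.02%) ranked at least 25 points lower. The prophase I anther table holds no record of 18377 premeiotic features, of which 413 were at 1 or more and 70 at 10 or more in both premeiotic libraries, so any fall of these to a very low level is not counted among the shifts. Of the 25460 features it does hold, 22381 reached 1 TPM in at least 1 of its 4 libraries. How its features were chosen is not known. A choice by prophase I level therefore cannot be told apart from the larger share of upward shifts in the lowest deciles.

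**Figure D3:**
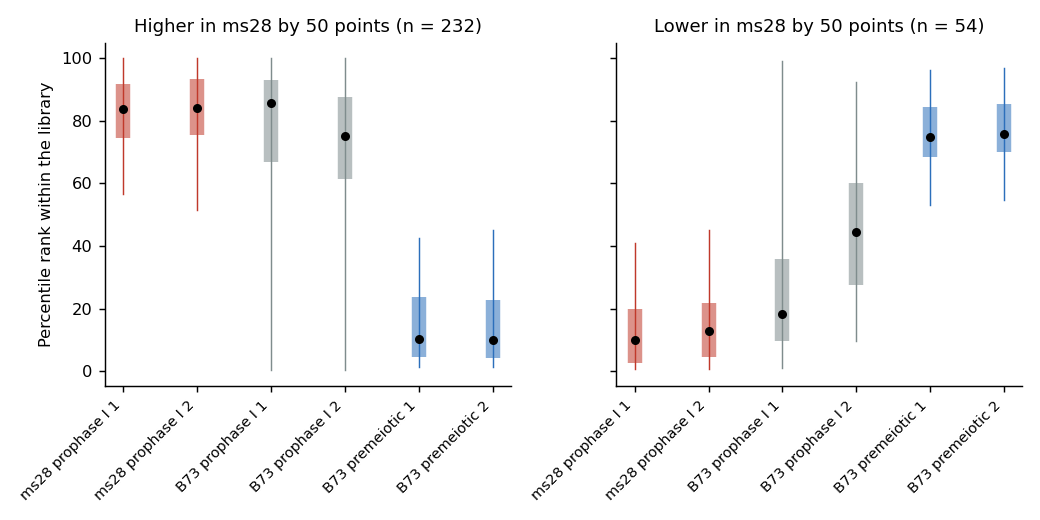
Percentile rank (y axis) in each library of the 232 gene models higher (left) and the 54 lower (right) in ms28 prophase I than in premeiotic anthers. Black dots are medians, boxes run between the lower and upper quartile and thin lines from the lowest to the highest member. The ms28 and premeiotic groups are apart by choice of the members, and the B73 prophase I libraries were not used to choose them.

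The B73 prophase I libraries, which took no part in choosing the shifted gene models, ranked the 232 at a median of 85.8 and 75.03, close to the ms28 medians. They ranked the 54 at a median of 18.3 and 44.4, both between the ms28 and the premeiotic medians. The B73 prophase I libraries differed from each other more at these gene models than elsewhere. The median difference between the ms28 libraries was 5.78 points over the 232, 3.47 over the 54 and 2.85 over all gene models. The same difference between the B73 prophase I libraries was 10.9 points over the 232, 20.6 over the 54 and 3.45 over all. Of the 232, 145 (62.5%) had both B73 prophase I libraries within 15 points of the ms28 mean rank, against 88.6% of all gene models, and 3 (1.29%) had both within 15 points of the premeiotic mean rank, against 72.6% of all. Of the 54, 9 (16.7%) had both within 15 points of the ms28 mean and 3 (5.56%) within 15 points of the premeiotic mean. With B73 prophase I replicate 1 alone, 32 of the 54 (59.3%) lay within 15 points of the ms28 mean, against 91.3% of all gene models. With replicate 2 alone 12 of the 54 (22.2%) did, against 94.2% of all. These counts describe levels only, since a B73 comparison would share the premeiotic libraries.

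The gene models with the largest shifts were taken by the smallest of their 4 pair differences. Zm00001d025549 read 1275 and 308 TPM in ms28 anthers, against 0.0693 and 0.0763 in the premeiotic libraries. Its ranks were 99.7 and 98.1 in ms28 and 6.11 and 6.40 before meiosis, a smallest pair difference of 91.7 points. In B73 prophase I anthers it read 51.7 and 512 TPM, so both genotypes had it at a high level at this stage and neither pair of libraries was close. Zm00001d048618 read 969 and 85.1 TPM in ms28 anthers, against 0.0181 and 0.0252 in the premeiotic libraries, and its smallest pair difference was 89.9 points. In B73 prophase I anthers it read 0.410 TPM in replicate 1 and 318 TPM in replicate 2, so the B73 libraries lay on either side of the shift. With the prophase I libraries compared by limma on log2(TPM + 1), ms28 and B73 anthers were not told apart for either gene model (log2 difference 1.93, SE 1.21, adjusted p = 0.244 for Zm00001d025549; 3.77, SE 2.18, adjusted p = 0.215 for Zm00001d048618). Both differences turned on which B73 prophase I library was kept. Without replicate 2 the log2 difference of Zm00001d048618 was 7.68 and passed the threshold (adjusted p = 0.00995), and without replicate 1 it was -0.14 (adjusted p = 0.948). That of Zm00001d025549 was 3.57 without replicate 2 (adjusted p = 0.0524) and 0.29 without replicate 1 (adjusted p = 0.875).

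The largest downward shifts were those of Zm00001d048948 and Zm00001d012806. Zm00001d048948 was listed at 0 in both ms28 anther libraries, against 43.1 and 48.4 in the premeiotic libraries, with a smallest pair difference of -87.4 points. B73 prophase I anthers were in between, at 0.760 and 5.96 TPM, and the ms28 difference from them missed the limma threshold (log2 -1.81, SE 0.60, adjusted p = 0.0796). It passed without B73 prophase I replicate 1 (adjusted p = 0.0286) and with a pseudocount of 0.1 (adjusted p = 0.0369). Zm00001d012806 was listed at 0 and read 0.0300 TPM in the ms28 libraries, against 36.6 and 33.2 in the premeiotic libraries, with a smallest pair difference of -83.1 points. B73 prophase I anthers had it at 75.2 and 35.8 TPM, at about its premeiotic rank, so here the 2 prophase I genotypes lay far apart.

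Zm00001d012806 is one of the few gene models at which the B73 anthers kept their premeiotic rank while ms28 did not. The next of this kind was Zm00001d013188, which read 0.950 and 1.11 TPM in ms28 anthers, against 31.8 and 32.1 in the premeiotic libraries, with 36.4 and 32.7 TPM in B73 prophase I anthers. In the opposite direction, Zm00001d020667 read 14.6 and 14.5 TPM in ms28 anthers, against 0.0529 and 0.0679 in the premeiotic libraries. B73 prophase I anthers had it listed at 0 and at 0.0400 TPM, so all 4 B73 libraries lay below both ms28 libraries. Zm00001d013111 read 9.92 and 16.9 TPM in ms28 anthers, against 0.128 and 0.185 in the premeiotic libraries, and was listed at 0 in both B73 prophase I libraries.

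Within the prophase I tables these 4 gene models also differed between the genotypes in the limma fit. The ms28 anthers were lower than B73 anthers at Zm00001d012806 (log2 -5.71, SE 0.33, adjusted p = 0.00034) and Zm00001d013188 (log2 -4.13, SE 0.25, adjusted p = 0.00034), and higher at Zm00001d013111 (log2 3.804, SE 0.27, adjusted p = 0.00060). Their adjusted p lay between 6.7e-05 and 0.0360 under 9 other settings or libraries left out, all in the same direction. Zm00001d020667, which the germ cell table does not list, was higher in ms28 in a fit of the 4 prophase I anther libraries alone (log2 3.93, SE 0.20, adjusted p = 0.0197). In all, that comparison called 0.507% of 20892 features higher and 7.31% lower in ms28 anthers, and the median feature was itself lower by a log2 difference of -0.48. After the median feature was subtracted from every library, 0.886% were called higher and 0.584% lower, so that the balance of these counts turned round, and leaving out 1 library gave between 40 and 4040 features lower. With the median subtracted, the calls of Zm00001d012806, Zm00001d013188 and Zm00001d013111 stood in the same direction. This comparison shares the ms28 libraries with the rank shifts and is therefore no separate support for them. The 4 gene models were also named for B73 prophase I ranks near the premeiotic mean rank and a large shift in ms28. A difference between the genotypes in anthers was thus built into their choice, and the anther p-values are no test of it.

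Germ cells isolated at prophase I, from libraries that the shifts did not use, showed the same contrast at 3 of these gene models. Over all 20892 features, limma called 9.05% higher and 5.29% lower in ms28 germ cells, or 8.22% and 8.85% after the median feature was subtracted. Zm00001d012806 was listed at 0 and read 0.0351 TPM in ms28 germ cells, against 47.5 and 50.7 TPM in B73 germ cells (adjusted p = 0.00013 by limma). Zm00001d013188 read 0.738 and 1.21 TPM in ms28 germ cells and 114 and 80.4 TPM in B73 germ cells (adjusted p = 4.9e-05 by limma). Zm00001d013111 read 17.9 and 22.6 TPM in ms28 germ cells and was listed at 0 in both B73 germ cell libraries (adjusted p = 0.00017 by limma). That fit takes its spread from the anther libraries as well. In a limma fit of the germ cell libraries alone the adjusted p of the 3 was 4.5e-05, 5.5e-05 and 7.7e-05, in the same order and directions. This fit called 13.2% of its features higher and 8.42% lower in ms28. At none of the 3 did the ms28 and B73 germ cell libraries overlap, but with 2 libraries each this was frequent: 37.2% of the 20892 features were higher in both ms28 libraries than in both B73 libraries, and 28.0% lower.

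**Figure D4:**
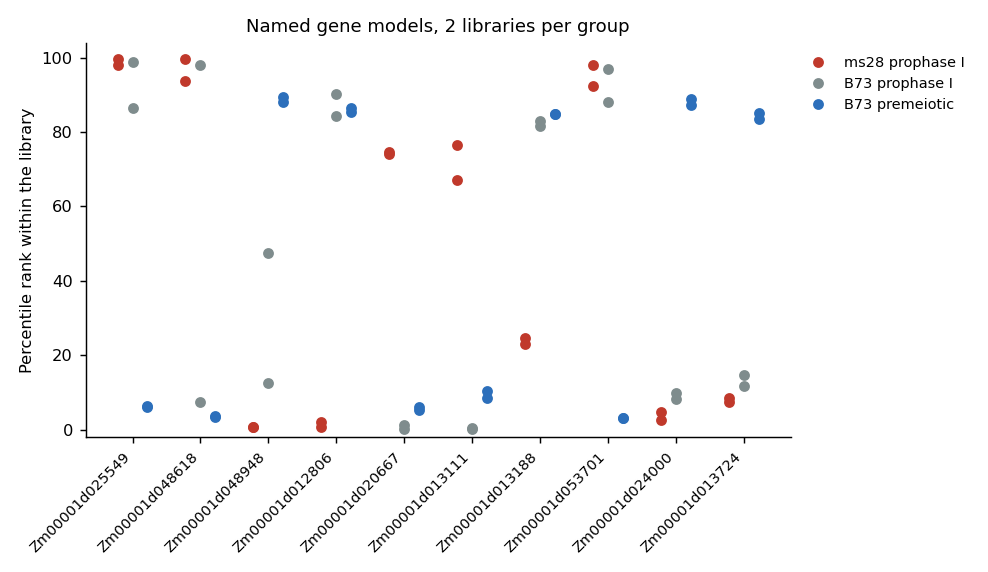
Percentile rank within the library (y axis) of 10 gene models named by rule (x axis), with 1 point per library and 2 libraries in each of ms28 prophase I, B73 prophase I and B73 premeiotic anthers. At Zm00001d012806 and Zm00001d013188 the B73 prophase I points lie beside the premeiotic points, and at Zm00001d053701, Zm00001d024000 and Zm00001d013724 beside the ms28 points. The rule that named these gene models required these positions. At Zm00001d048618 the 2 B73 prophase I points lie at 7.49 and 98.1.

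Other gene models with large shifts had B73 prophase I levels near those of ms28. Zm00001d053701 read 67.5 and 287 TPM in ms28 anthers, against 0.0137 and 0.0115 in the premeiotic libraries, with 236 and 49.4 TPM in B73 prophase I anthers. Zm00001d024000 read 0.0400 and 0.10 TPM in ms28 anthers, against 46.1 and 39.6 in the premeiotic libraries, with 0.450 and 0.420 TPM in B73 prophase I anthers. Zm00001d013724 read 0.170 and 0.210 TPM in ms28 anthers, against 28.4 and 33.0 in the premeiotic libraries, with 0.700 and 0.730 TPM in B73 prophase I anthers. At all 3 the 4 prophase I libraries of both genotypes lay on the same side of both premeiotic libraries, which follows from how they were named. The rule took the largest shifts among gene models whose B73 prophase I ranks lay near the ms28 mean rank. The limma values that follow are therefore no test of agreement between the genotypes. The limma difference between ms28 and B73 anthers was 0.36 for Zm00001d053701 (SE 0.80, adjusted p = 0.727) and -0.42 for Zm00001d024000 (SE 0.23, adjusted p = 0.189). Zm00001d013724 did not pass the filter of that fit.

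The percentile rank hides the size of changes at the top of the range, since a gene model at a middle rank before meiosis can gain at most about 50 points. The 5 gene models of highest mean TPM in ms28 anthers, named after their values were seen, show this. Zm00001d001829 read 42159 and 18116 TPM in ms28 anthers, against 5.09 and 3.86 in the premeiotic libraries. Its rank there was already 52.0 and 46.7, so its smallest pair difference was 48.0 points and it did not count as shifted. Zm00001d021226 read 32014 and 8147 TPM in ms28 anthers, against 10.1 and 10.3 in the premeiotic libraries. Zm00001d026620 read 21936 and 8593 TPM in ms28 anthers, against 2.77 and 3.56 in the premeiotic libraries, and was the one of the 5 that counted as shifted, at 54.8 points. Zm00001d052736 read 18273 and 6512 TPM in ms28 anthers, against 5.06 and 4.62 in the premeiotic libraries.

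These 4 gene models alone held 11.5% and 4.18% of the summed value over shared gene models in the ms28 anther libraries, against 0.00280% and 0.00271% in the premeiotic libraries. As shares of that sum, on a log2 scale with a pseudocount of 1 part in 1000000, the mean difference between ms28 and premeiotic libraries ran from 10.2 to 12.1. The B73 prophase I libraries differed widely from each other at any of the 4. They held 0.0797% in replicate 1 and 3.58% in replicate 2, and Zm00001d001829 read 169 TPM in replicate 1 and 12963 TPM in replicate 2. The lower ms28 library and the higher B73 prophase I library, each replicate 2, were closer. They read 18116 and 12963 TPM at Zm00001d001829, and 8593 and 7111 TPM at Zm00001d026620. At Zm00001d052736 they read 6512 and 6205 TPM, and at Zm00001d021226 8147 and 9151 TPM. The 4 gene models were chosen for their high ms28 values, which favours ms28 values above those of B73, so the order of the genotypes is no result.

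**Figure D5:**
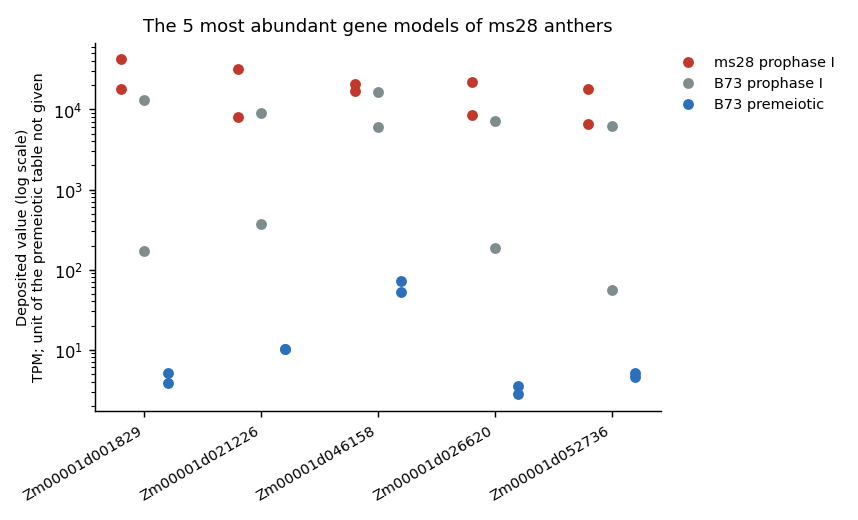
Deposited value (y axis, log scale) of the 5 gene models of highest mean TPM in ms28 prophase I anthers (x axis), with 1 point per library and 2 libraries in each of ms28 prophase I, B73 prophase I and B73 premeiotic anthers. Values are in TPM at prophase I, and the unit of the premeiotic table is not given. At 4 of the 5 the B73 prophase I replicates lie more than 10-fold apart, while at Zm00001d046158 they read 16563 and 6090 TPM.

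The remaining one of the 5, Zm00001d046158, had a different profile. It read 16990 and 20936 TPM in ms28 anthers, against 72.5 and 51.9 in the premeiotic libraries, with 16563 and 6090 TPM in B73 prophase I anthers. It was also abundant in germ cells, at 2914 and 4179 TPM in ms28 and 2145 and 2725 TPM in B73. The other 4 stood between 2.71 and 26.1 TPM in ms28 germ cells. In B73 germ cells they stood between 6.43 and 38.5 TPM in replicate 1 and between 164 and 173 TPM in replicate 2, so the 2 B73 libraries did not overlap.

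Beneath these, the most abundant transcripts of the premeiotic anther stayed abundant in ms28. Of the 100 highest-ranking gene models of ms28 anthers, 64 were also among the 100 highest of premeiotic anthers, and 7 ranked below 50 in both premeiotic libraries. The 100 highest of premeiotic anthers held 21.6% and 23.7% of the summed value in the ms28 libraries and 26.2% and 26.3% in the premeiotic libraries, and 0 of them ranked below 50 in both ms28 libraries. The most abundant of them, Zm00001d002543, read 7982 and 8327 TPM in ms28 anthers, against 8256 and 8699 in the premeiotic libraries. The 100 highest of ms28 anthers held 39.1% and 34.6% in the ms28 libraries, against 21.3% and 21.4% in the premeiotic libraries.

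A stricter reading takes only gene models listed at 0 on one side. Listed at 0 in both premeiotic libraries and at 10 TPM or more in both ms28 anther libraries were 11 gene models, which read between 10.2 and 74.5 TPM in ms28. In B73 prophase I anthers the 11 read between 2.02 and 97.0 TPM, and the median of their mean levels was 22.5 TPM. In the other direction, 2 gene models were listed at 0 in both ms28 libraries and at 10 or more in both premeiotic libraries, one of them Zm00001d048948 above. Both read between 0.760 and 7.09 TPM in B73 prophase I anthers. All of these counted as shifted by rank. Of the 25412 shared gene models, 415 were listed at 0 in both premeiotic libraries and 168 in both ms28 libraries. A further 70 features at 10 or more in both premeiotic libraries are not held by the prophase I anther table. These could not enter the second count, so the 2 counts cannot be set against each other.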

How the data were processed

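Tools named in the submitters' processing notes, in no stated order or role, are HISAT2 2.2.1, featureCounts 2.0.1, Trimmomatic 0.33, DESeq2 and Cufflinks, and the genome build is B73 RefGen_v4. Per the labels' protocols, libraries were made by a Smart-seq type method, which does not mark strand, so overlapping antisense transcripts cannot be told apart, and gene models with near-identical copies are uncertain. The 2 deposited prophase I tables are read as TPM, because each column sums to between 99.1 and 99.4% of 1000000; their headers give no unit. The deposited premeiotic table gives no unit either and is treated as a score per gene model. Its columns sum to 83.0 and 83.2% of 1000000, and its 1 value below 0 (-1e-06) was set to 0. Column names were matched to the labels, reading WT as B73.

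Percentile ranks were taken within each anther library over the 25412 shared features, with tied values given their mean rank. Those of the germ cell libraries were taken over all 22786 features of their table. No model was fitted across tables, which were made separately. R 4.3.3 and limma 3.58.1 were used to fit log2(TPM + 1) in the 8 prophase I libraries, with trend, 1 coefficient per group and no replicate block. Of the features in both prophase I tables, the 20892 that reached 1 TPM in at least 2 of these libraries were fitted. Adjusted p is Benjamini-Hochberg over these, with calls under 0.05, and a log2 difference on this scale understates that of low features. Its p-values measure the spread between libraries, which may be technical. Both methods were tested on simulated data with planted changes and normal noise of equal size in all libraries. Those data held no difference between tables and no replicates as far apart as the B73 prophase I anther libraries, so such cases were not covered. Python 3.11.15, pandas 2.3.3 and matplotlib 3.10.9 were used.

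Gene models were named as the 2 higher and the 2 lower in ms28 with the largest smallest pair difference, first among all, then among those with both B73 prophase I libraries within 15 points of the premeiotic mean rank, then among those with both within 15 points of the ms28 mean rank. Members, lists, thresholds and alternatives were chosen with earlier results of these data known, and the 5 most abundant gene models, the B73 libraries taken 1 at a time, and own-table ranks below 50 points after the data were seen. The miRNA loci that the rule also named are in only 1 of the 2 anther tables, and no marker symbol could be matched, so neither is reported here.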

Additional observations from a re-analysis of the deposited data

How the results depend on the processing

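A lower threshold or fewer library pairs cannot end the rank call of a named gene model. Under the other 4 settings the calls of the 10 stood in 38 of 40 recomputed values, and ranks over all features of each own table ended 2 of 10, those of Zm00001d020667 (36.7 points) and Zm00001d013111 (23.4 points). The number of gene models ranked higher and lower in ms28 than in premeiotic anthers (232 and 54) became 894 and 402 at 25 points, 7755 and 11762 by direction alone, and 25 and 299 with ranks over each own table (210 and 7743 at 25 points, 1390 and 22574 by direction alone). Gene models at 1 or more in at least 2 of the 4 libraries gave 301 and 89. A log2 difference in share of at least 2 gave 617 and 319 with a pseudocount of 1 part in 1000000, and 1139 and 732 with 0.1. Leaving out 1 library gave 248 to 313 higher and 57 to 103 lower, with 103 without ms28 anther replicate 2. Same-numbered pairs only (a replicate block) gave 244 and 57. The numbers are not known to pair the libraries, since the replicate differences of the 2 groups had a correlation of 0.0044 over gene models.

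The limma counts of features higher and lower in ms28 (anthers 106 and 1527, germ cells 1890 and 1105) moved more. Centring gave 185 and 122 in anthers and 1718 and 1849 in germ cells, the replicate block 73 and 682 in anthers and 1016 and 676 in germ cells, and a fit of the anther libraries alone 17 and 50. Leaving out 1 library gave 19 to 201 higher and 40 to 4040 lower in anthers. The counts were 19 and 40 without ms28 anther replicate 1, 52 and 229 without ms28 anther replicate 2, 49 and 254 without B73 anther replicate 1, and 201 and 4040 without B73 anther replicate 2. In germ cells the range was 230 to 1047 higher and 63 to 503 lower. The counts were 230 and 63 without ms28 germ cell replicate 1, 391 and 183 without ms28 germ cell replicate 2, 658 and 503 without B73 germ cell replicate 1, and 1047 and 284 without B73 germ cell replicate 2. Where a group was left with 1 library, that library was assumed to vary like the other groups. In germ cells the call of Zm00001d048948 was gained with the germ cell libraries alone (adjusted p = 0.0232). The causes of these changes were not tested. Depth is unknown, so counting error at low levels could not be given.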

Other observations

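The germ cell table, whose libraries took no part in the rank shifts, lists 226 of the 232 gene models higher in ms28 anthers than before meiosis and 41 of the 54 lower ones (97.4% and 75.9%, against 88.1% of all shared gene models). Ranks in germ cells were taken over all 22786 features of that table, a scale unlike that of the anther ranks. On it all listed shared gene models had a median of 50.8 in each library. The 226 stood at median ranks of 56.9 and 56.9 in ms28 germ cells and 60.2 and 61.6 in B73 germ cells. The 41 stood at 14.1 and 12.2 in ms28 germ cells and 15.2 and 32.0 in B73 germ cells. Of the 226, limma called 16 higher (7.08%) and 45 lower (19.9%) in ms28 than in B73 germ cells at an adjusted p under 0.05, against 9.05% higher and 5.29% lower among all 20892 features tested. Their median log2 difference was 0.06, against 0.07 for all. Leaving out 1 library shortened these lists and the list over all features. Of the 226, 4 were called higher and 4 lower (both 1.77%) without ms28 germ cell replicate 1, against 1.11% and 0.303% of all features. Without ms28 replicate 2, 5 were higher and 11 lower (2.21% and 4.87%), against 1.88% and 0.879% of all. Without B73 germ cell replicate 1, 10 were higher and 28 lower (4.42% and 12.4%), against 3.16% and 2.42%, and without B73 replicate 2, 10 and 17 (4.42% and 7.52%), against 5.04% and 1.37%. The share called lower was above that of all features each time, while the share called higher lay on either side of it. In a fit of the germ cell libraries alone, 47 of 203 were higher and 57 lower (23.2% and 28.1%), against 13.2% and 8.42% of all.

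Of the 37 lower gene models that were tested, 1 was called higher and 4 lower (2.70% and 10.8%). The shares of all features were 9.05% and 5.29%. The 4 became 11 with a pseudocount of 0.1 (29.7%, against 5.73% of all features). They became 6 after centring (16.2%, against 8.85%) and 6 with the replicate block (16.2%, against 3.24%). In a fit of the germ cell libraries alone, 8 of 21 were called lower (38.1%, against 8.42%). The median log2 difference of the lower gene models was -0.675 in the main fit, against 0.0692 for all features. With 1 germ cell library left out it ran from -1.51 to 0.0626.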
